A study of Mus musculus with 2 samples.

Results

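The genes described here encode growth factors of the fibroblast (FGF), platelet-derived (PDGF), epidermal (EGF) and glial cell line-derived neurotrophic (GDNF) families, hepatocyte growth factor (Hgf) and Kit ligand, their receptors, and inhibitors that the pathway itself induces. They were chosen by gene symbol. The rule found 52 of the 35557 probe sets, each standing for a different gene, among 19938 genes with a probe set of their own. Areg was not analysed here.

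RNA came from mouse embryonic fibroblasts (MEFs), connective-tissue cells grown from embryos at 13.5 days post coitum. One culture was MatDup.dist7, whose 2 copies of distal chromosome 7 both derive from the mother. The other was PatDup.dist7, with both copies from the father. Each genotype was measured on 1 Affymetrix whole-transcript array, so no difference between genotypes could be tested and no p-value is given. The values are intensities on a linear scale.

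The growth factors of these families bind receptor tyrosine kinases at the cell surface. The receptors pair up, phosphorylate each other and signal through Ras and the kinase ERK, and through PI3K and Akt. Fibroblasts are a classical target of PDGF and FGF, which drive their division and migration, and they are a source of factors such as Fgf7, Fgf10 and Hgf that act on neighbouring epithelia. ERK induces its own brakes, among them the Sprouty proteins, Spred1 and the phosphatase Dusp6.

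Of these genes, 49 lay within 2-fold between the genotypes, and 3 of 52 (5.77%) were at least 2-fold apart on the log2(intensity + 16) scale, beside 7.63% of all genes. Fgf13 was higher in MatDup.dist7, and Gfra1 and Hbegf were higher in PatDup.dist7. Statements of 2-fold use this scale unless another setting is named. Printed intensities can therefore lie further apart than 2-fold for a gene counted within it. Of all genes, 4.47% were past 2-fold toward MatDup.dist7 and 3.16% toward PatDup.dist7. A signal filter was set at an intensity of 66.4, the 50th percentile over the probe sets of both arrays, and 41 of the 52 genes had a higher value above it. Of those 41, 3 (7.32%) were at least 2-fold apart, beside 5.16% of all genes above the filter, 2.74% with the higher value in MatDup.dist7 and 2.42% with it in PatDup.dist7. The median difference, always MatDup.dist7 minus PatDup.dist7, was 0.02 over the 52 genes and 0.02 over all genes. Of the 52, 26 were higher on each array. The median size of the difference, without sign, was 0.43, beside 0.38 over all genes.

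The only error estimate within the arrays comes from genes measured by more than 1 probe set. Probe sets of the same gene gave log2 differences with a standard deviation of 0.43 (724 genes above the filter, 1931 probe sets). It holds no variation between cultures or embryos. Of the 52 genes, 26 (50%) differed by more than this, beside 43.8% of all genes.

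**Figure D1:**
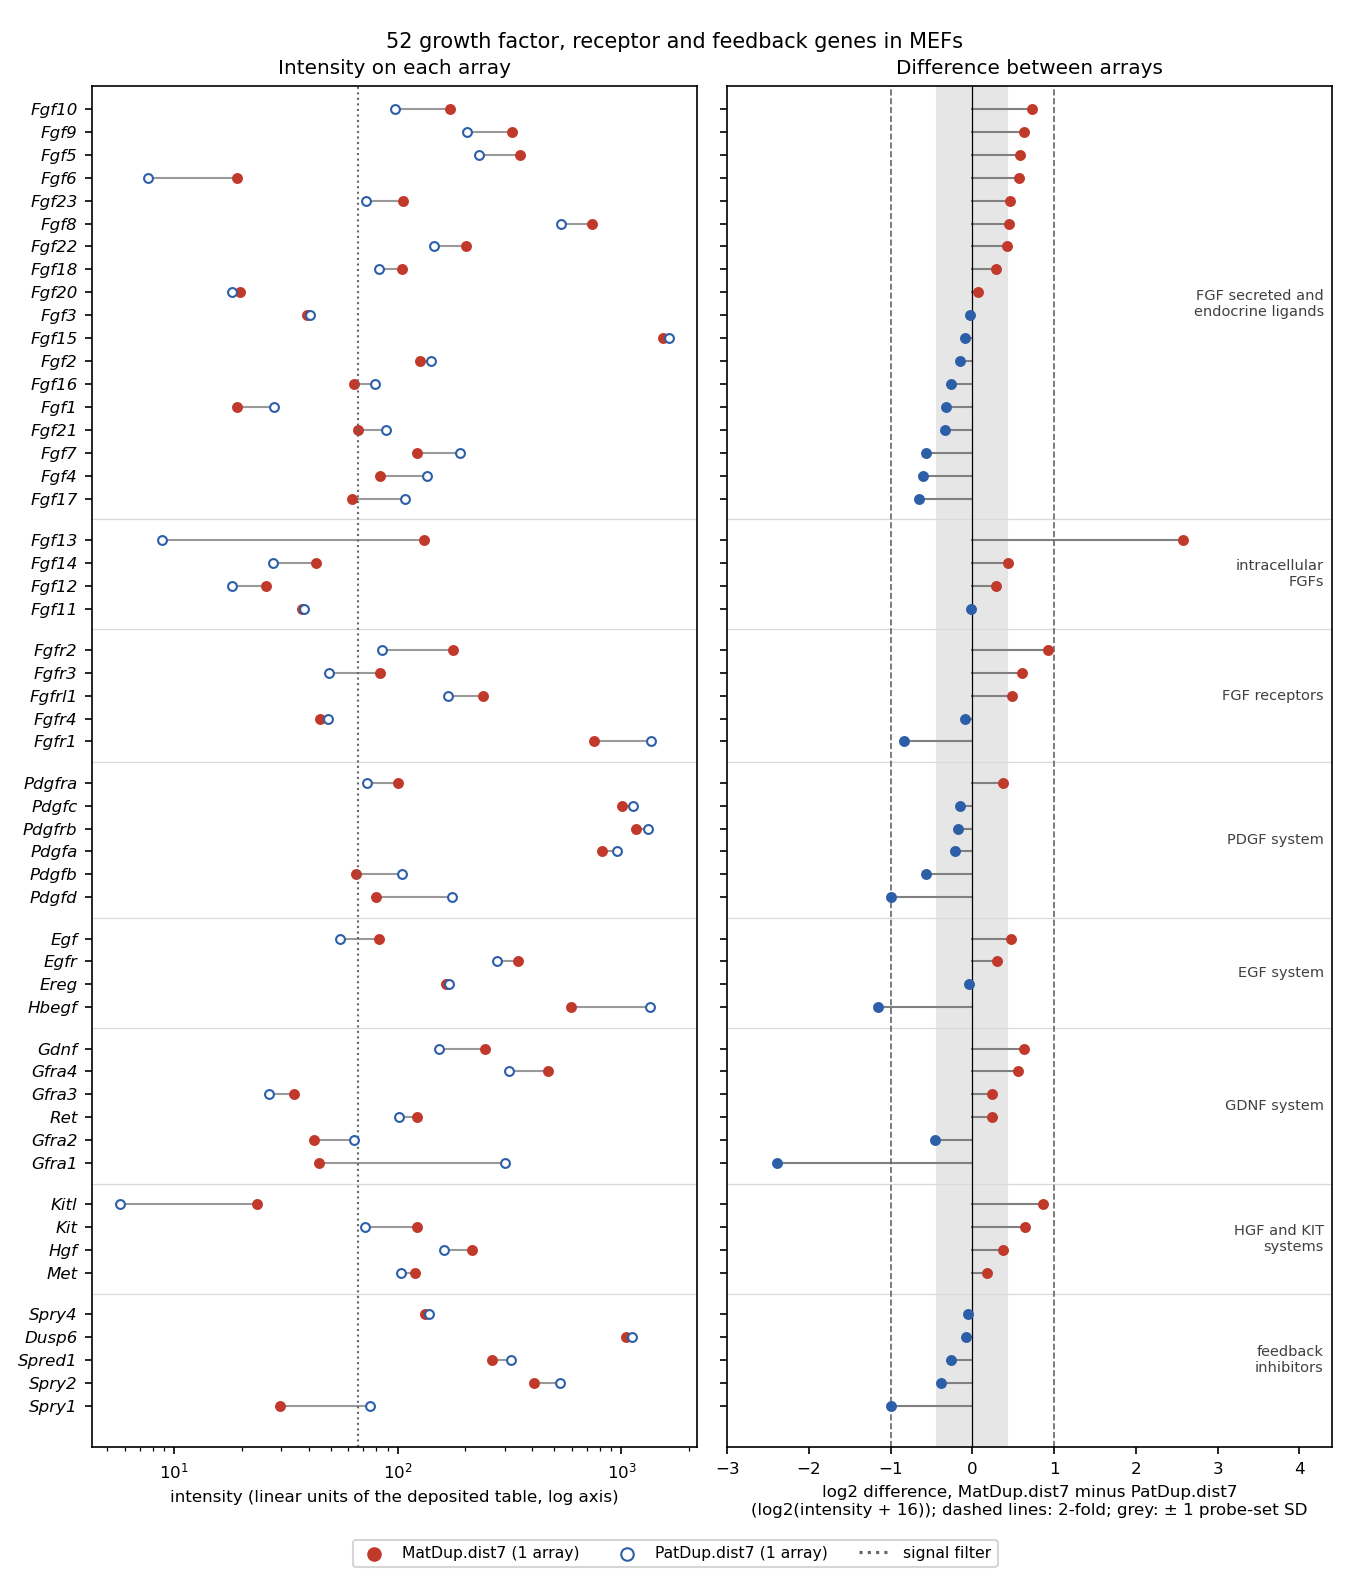
The left panel plots the intensity of each of the 52 genes on the MatDup.dist7 array (filled circles) and the PatDup.dist7 array (open circles) on a log axis, grouped by role, and the right panel plots the log2 difference, with dashed lines at 2-fold and a grey band of 1 standard deviation between probe sets of a gene (0.43). Fgf13 at 2.57 and Gfra1 at -2.39 stand apart, Hbegf at -1.15 lies past the 2-fold line, and all 4 PDGF ligands and all 5 feedback inhibitors lie left of 0.

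The DNA before the start sites of Fgf13, Gfra1 and Spry1 is shown because these genes had the largest differences in their groups (intracellular factors, GDNF receptors, feedback inhibitors). Each sequence is the 250 bases before a RefSeq start site (GRCm38.p6), 5′ to 3′ on the strand of the gene, with CG dinucleotides, the sites of DNA methylation, in capitals. The reference table lists 4 start sites for Fgf13 on chromosome X, and the single Fgf13 probe set does not tell transcripts from these starts apart. In order along the gene they are chrX:59585573-59585822, chrX:59567349-59567598, chrX:59166089-59166338 and chrX:59134437-59134686, all on the minus strand. The Gfra1 sequence is chr19:58455399-58455648 on the minus strand, and the Spry1 sequence is chr3:37639697-37639946 on the plus strand.
Fgf13 start 1: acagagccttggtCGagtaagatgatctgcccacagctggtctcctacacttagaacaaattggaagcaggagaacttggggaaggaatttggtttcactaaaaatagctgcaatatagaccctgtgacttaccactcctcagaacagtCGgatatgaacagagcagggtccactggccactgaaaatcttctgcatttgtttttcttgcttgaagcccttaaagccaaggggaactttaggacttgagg
Fgf13 start 2: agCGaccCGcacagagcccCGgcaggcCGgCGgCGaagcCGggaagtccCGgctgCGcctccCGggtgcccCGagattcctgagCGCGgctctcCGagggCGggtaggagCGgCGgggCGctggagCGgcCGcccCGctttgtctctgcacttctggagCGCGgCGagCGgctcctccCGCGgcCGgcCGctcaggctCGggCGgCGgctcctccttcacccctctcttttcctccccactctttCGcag
Fgf13 start 3: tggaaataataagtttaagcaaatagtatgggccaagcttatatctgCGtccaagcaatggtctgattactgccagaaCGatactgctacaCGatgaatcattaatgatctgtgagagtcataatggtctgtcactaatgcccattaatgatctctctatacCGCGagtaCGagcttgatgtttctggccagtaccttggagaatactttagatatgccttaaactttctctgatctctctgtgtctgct
Fgf13 start 4: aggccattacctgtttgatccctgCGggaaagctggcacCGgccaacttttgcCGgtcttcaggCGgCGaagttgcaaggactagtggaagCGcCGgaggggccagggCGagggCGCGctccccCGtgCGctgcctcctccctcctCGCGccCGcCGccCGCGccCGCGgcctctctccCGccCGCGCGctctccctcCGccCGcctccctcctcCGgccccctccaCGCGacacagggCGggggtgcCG
Gfra1: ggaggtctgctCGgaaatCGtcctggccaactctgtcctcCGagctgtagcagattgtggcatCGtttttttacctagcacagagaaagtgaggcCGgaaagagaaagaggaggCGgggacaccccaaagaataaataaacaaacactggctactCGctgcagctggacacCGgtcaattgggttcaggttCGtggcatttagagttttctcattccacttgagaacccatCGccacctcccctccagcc
Spry1: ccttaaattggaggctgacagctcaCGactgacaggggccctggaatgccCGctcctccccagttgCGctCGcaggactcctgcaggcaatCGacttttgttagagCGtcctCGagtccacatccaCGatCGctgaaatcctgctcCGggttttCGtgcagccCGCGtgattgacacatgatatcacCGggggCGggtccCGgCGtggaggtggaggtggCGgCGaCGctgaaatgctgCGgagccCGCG

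The 4 Fgf13 starts fall into a CG-poor and a CG-rich pair. Starts 1 and 3 hold 2 and 6 CG dinucleotides, and starts 2 and 4 hold 33 and 31. As many as 33 were found in 4.03% of the 32851 windows of the table, and as many as 31 in 5.19%. The Gfra1 window holds 10 and the Spry1 window 23, against a median of 6 over all windows. A window was found for 37 of the 52 genes, 50 windows in all, and their median was 15; some windows of 1 gene overlap. The GC box GGGCGG, searched on both strands, was in 27 of these 50 windows (54.0%) and in 32.7% of all windows; start 2 of Fgf13 holds 3 matches and start 4 holds 4. The ETS motif CCGGAAG and the AP-1 motif TGANTCA, bound by transcription factors that act downstream of ERK, were each in 4 of the 50 windows (8%), beside 6.91% and 6.75% of all windows. Neither was in the windows of Spry1, Spry2, Spred1, Dusp6 or Gfra1, and the AP-1 motif was in start 3 of Fgf13. No window was in the table for Ereg, Fgf1, Fgf8, Fgf15, Fgf16, Fgf17, Fgf20, Fgfr1, Gfra2, Gfra3, Hbegf, Pdgfb, Pdgfrb, Ret and Spry4.

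Checks of the labels frame the comparison. The imprinted genes Cdkn1c (1109 in MatDup.dist7, 0.0132 in PatDup.dist7) and Igf2 (7.48 and 1013) differed in the directions known for a maternally and a paternally expressed gene of distal chromosome 7. Sex-linked transcripts differed as well, with the Y-linked Eif2s3y at 112 and 6.44, Uty at 77.9 and 2.61, Kdm5d at 122 and 22.9, and Xist listed at 0.00166 and 91.2. Sex and genotype therefore cannot be told apart. Of 14 fibroblast markers, 13 lay above the signal filter; their summed intensity was 43010 in MatDup.dist7 cells and 52165 in PatDup.dist7 cells, and 3 of them, Dcn, Postn and Pdpn, were 2-fold or more higher in PatDup.dist7. Endothelial markers summed to 773 and 764, and skeletal muscle markers to 2683 and 2327. In cultures measured as a whole, fewer cells of a type and less RNA per cell cannot be told apart.

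Fgf13 encodes an intracellular member of the FGF family, which is not secreted and regulates sodium channels and microtubules, mainly in neurons. Its intensity was 131.6 in MatDup.dist7 cells and 8.81 in PatDup.dist7 cells, only the former above the signal filter. This is a log2 difference of 2.57, a 5.95-fold difference on the log2(intensity + 16) scale, and it ranked 13 among the genes above the filter that were higher in MatDup.dist7. The size rests on how a low signal is treated, since it was 3.76 with a pseudocount of 1 and 1.43 with a pseudocount of 64. The other genes of this subfamily did not show such a gap. Fgf12 had 25.8 and 18.1 (difference 0.29), Fgf14 had 43.2 and 27.7 (0.44), and Fgf11 had 37.4 and 38.2 (-0.02), and these 3 lay under the signal filter on both arrays.

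Fgf13 lies on chromosome X, as does Fgf16. Over the 739 measured genes of this chromosome the median difference was 0.07, with 38 genes past 2-fold toward MatDup.dist7 and 24 toward PatDup.dist7. Among the 5 nearest measured genes on each side of Fgf13, 1 of 10 was 2-fold apart, Arhgef6 at -1.10, and the median was 0.17. Mir504, a microRNA gene inside Fgf13, had 70.0 and 64 at its own probe set (0.10). Of 8 neuronal markers, 4 lay above the signal filter and 6 were higher in MatDup.dist7. Stmn2 (755 and 73.7) and Elavl4 (31.2 and 6.495, under the filter) were higher there by at least 2-fold. Syt1 (8.37 and 35.3), also under the filter, was 2-fold or more higher in PatDup.dist7. The summed intensity of the 8 was 1819 and 800.4, or 1064 and 727 without Stmn2. The part of neuronal cells in the Fgf13 difference was not tested.

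Among the 15 secreted FGFs that act locally, none was 2-fold apart; 8 were higher in MatDup.dist7, the other 7 in PatDup.dist7, and the median difference was 0.07. The largest difference was that of Fgf10, the mesenchymal factor for lung and limb outgrowth, with 171.9 in MatDup.dist7 cells and 97.1 in PatDup.dist7 cells (0.73). Fgf7, also called keratinocyte growth factor, belongs to the same subfamily and went the other way, with 122 and 189 (-0.57). Fgf22 of this subfamily had 202 and 146 (0.43), and Fgf3 had 39.3 and 40.3 (-0.03). The subfamily was thus split, with Fgf10 and Fgf22 higher in MatDup.dist7.

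The other subfamilies of secreted FGFs were split too, apart from the pair Fgf1 and Fgf2. Fgf9, a signal between epithelium and mesenchyme, had 324 in MatDup.dist7 cells and 204 in PatDup.dist7 cells (0.63), whereas Fgf16 had 63.4 and 79.2 (-0.26) and Fgf20 had 19.7 and 18.1 (0.07). Fgf5, a regulator of the hair cycle, had 352 and 231 (0.58), and Fgf6, a muscle factor under the filter, 19.0 and 7.62 (0.57). Fgf4, a factor of the early embryo and the limb bud in the subfamily of Fgf5 and Fgf6, had 83.3 and 135 (-0.61). Fgf8, a patterning signal of the limb and brain, had 736 and 536 (0.45). Fgf18, which acts on cartilage and bone, had 104 and 82.7 (0.29). Their relative Fgf17 had 62.7 and 108 (-0.66), the lowest difference of the 15. Fgf2, the basic FGF widely used to stimulate fibroblasts, had 126 and 141 (-0.15), and Fgf1 had 19.0 and 27.9 (-0.33). Both members of the last subfamily were lower in MatDup.dist7 by less than the spread between probe sets.

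The endocrine FGFs, which act at a distance together with Klotho proteins, lay within 2-fold. Fgf15, an intestinal regulator of bile acid synthesis that is also made in the embryo, had 1538 in MatDup.dist7 cells and 1637 in PatDup.dist7 cells (-0.09). Fgf21, a metabolic hormone, had 66.2 and 88.1 (-0.34), and Fgf23, a regulator of phosphate, had 105 and 71.9 (0.46).

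Of these genes, 5 lie on chromosome 7. Fgf3, Fgf4 and Fgf15 are adjacent near its distal end, at places 1726 to 1728 of its 1734 measured genes, beyond Igf2 at place 1695 and Cdkn1c at place 1707. Their differences of -0.03, -0.61 and -0.09 were all within 2-fold, as were those of all 10 nearest measured genes of each. Fgfr2 stands at place 1520 and Fgf21 at place 679. A duplicated segment that holds Igf2 and Cdkn1c and runs to the distal end of the chromosome would include Fgf3, Fgf4 and Fgf15. The sources used here do not give where the segment begins, so Fgfr2 and Fgf21 were not assigned to it. All 5 lay within 2-fold. Of the 1734 genes, 84 were past 2-fold toward MatDup.dist7 and 50 toward PatDup.dist7, together 7.73%. At that share, few or none of 5 genes would be past 2-fold.

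The FGF receptors differed in opposite directions without reaching 2-fold. Fgfr1, the main FGF receptor of mesenchymal cells, had 752 in MatDup.dist7 cells and 1358 in PatDup.dist7 cells, a difference of -0.84 or 1.79-fold. Fgfr2 had 176 and 84.9, a difference of 0.93 or 1.90-fold in the other direction. Its epithelial and mesenchymal splice forms, which bind different ligands, are not resolved by its 1 probe set. Fgfr3, a brake on cartilage growth, had 83.4 and 49.4 (0.61). Fgfrl1, a receptor-like protein without a kinase domain, had 239 and 167 (0.48), and Fgfr4, under the filter, had 44.7 and 48.7 (-0.09). Fgfr1 was the gene with the lowest difference of the 5 and Fgfr2 the gene with the highest; Fgfr2 passed 2-fold when the pseudocount was 1 (1.04) and when values were floored at the 25th percentile of each array (1.05).

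Marker genes of other cell types differed beside the receptors. Of 8 epithelial markers, 7 were higher in MatDup.dist7, with a summed intensity of 988 against 596, or 836 against 577 without Krt19 (152 and 18.8). Of the 8, 6 lay above the filter, among them the defining markers Epcam (159 and 103) and Cdh1 (129.5 and 68.3), the latter close to the filter of 66.4 in PatDup.dist7. Krt5 (23.2 and 1.503) and Krt14 (7.20 and 8.45) were low on both arrays. Of 8 cartilage markers, 6 were higher in MatDup.dist7, with a summed intensity of 1141 against 529. Col2a1, the main cartilage collagen, had 599 and 141, the largest single part of both sums. Sox5 (60.0 and 82.0) and Sox6 (45.2 and 70.9) went the other way. Acan (14.3 and 3.46) and Comp (54.9 and 4.44) lay under the filter on both arrays. The parts of epithelial and cartilage cells in the differences of Fgfr2 and Fgfr3 were not tested.

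All 4 PDGF ligand genes were lower in MatDup.dist7, none of them by 2-fold, beside 9698 of all 19938 genes that were lower there. Pdgfd, which encodes a ligand that must be cleaved before it binds, had 79.9 in MatDup.dist7 cells and 175 in PatDup.dist7 cells. Its difference of -0.996 lay at the edge of the 2-fold rule. It passed the rule with a pseudocount of 1 (-1.12) and when the median of all genes was subtracted (-1.02). With a pseudocount of 64 it was -0.73. Pdgfb had 65.3 and 104 (-0.57), Pdgfa 818 and 953 (-0.22), and Pdgfc 1006 and 1123 (-0.16), the latter 2 within the spread between probe sets. The median of the 4 was -0.39. All 4 kept their sign after quantile normalisation. The other pseudocounts, centring and the floor changed the sizes but could not have reversed these signs. Around Pdgfd, 5 of the 10 nearest measured genes were 2-fold apart in both directions, from Mmp13 at -1.97 to Gria4 at 1.04.

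The 2 PDGF receptor genes lay within 2-fold, in opposite directions. Pdgfrb had 1157 in MatDup.dist7 cells and 1307 in PatDup.dist7 cells (-0.17), and Pdgfra had 99.7 and 72.9 (0.38). Kit, the next measured gene to Pdgfra on chromosome 5, encodes the receptor for stem cell factor on melanocytes, mast cells and germ cells; it had 121 and 71.6 (0.65). Its ligand gene Kitl was under the filter, with 23.5 and 5.70 (0.87). Kitl depended on the treatment of low values more than most, at 1.87 when the pseudocount was 1 and 0.15 when values were floored at the 25th percentile. Both genes of the pair were higher in MatDup.dist7. Melanocyte markers summed to 512 and 484 (3 of 6 higher in MatDup.dist7) and mast cell markers to 516 and 575 (3 of 7), Mcpt4 alone standing at 20.2 and 183; the part of these cells was not tested.

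Hbegf was the only EGF-family gene among the 52 that was past 2-fold. Outside the 52, the related genes Epgn (-1.09) and Nrg3 (1.09), both under the filter, were also past 2-fold, in opposite directions. Hbegf encodes heparin-binding EGF-like growth factor, a membrane-bound ligand of the EGF receptor that is released by proteases. Its intensity was 592 in MatDup.dist7 cells and 1336 in PatDup.dist7 cells, a difference of -1.15 or 2.22-fold, rank 195 among the 308 genes above the filter that were 2-fold or more higher in PatDup.dist7. Under the other pseudocounts and scalings it ranged little, from -1.09 with a pseudocount of 64 to -1.17 with a pseudocount of 1, and it did not reach 3-fold. None of its 10 nearest genes on chromosome 18 was 2-fold apart, and their median was 0.23. Ereg, which encodes epiregulin, another ligand of the same receptor, had 164 and 170 (-0.05), and Egf had 82.4 and 54.9 (0.47). The receptor gene Egfr had 346 and 278 (0.30). Macrophages, a source of Hbegf, had markers that summed to 5092 in MatDup.dist7 cells and 5432 in PatDup.dist7 cells, with 7 of 11 lower in MatDup.dist7; their part in the difference was not tested.

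Gfra1 had the largest difference toward PatDup.dist7 among the 52 genes. It encodes the anchored co-receptor that presents GDNF to the kinase Ret, a signal for enteric neurons, the ureteric bud and sperm stem cells. Its intensity was 44.6 in MatDup.dist7 cells and 302 in PatDup.dist7 cells, so that the PatDup.dist7 value alone lay above the signal filter. The difference was -2.39, or 5.25-fold, rank 13 among the genes above the filter that were higher in PatDup.dist7. It ranged from -1.75 with a pseudocount of 64 to -2.76 with values floored at the 25th percentile. Among its 10 nearest measured genes on chromosome 19, 1 was 2-fold apart, Afap1l2 at -1.37, and the median was -0.41.

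The other genes of the GDNF system lay within 2-fold and in both directions. Gdnf itself had 245 in MatDup.dist7 cells and 152 in PatDup.dist7 cells (0.63), in the opposite direction. Ret had 122 and 101 (0.24). Gfra2, the co-receptor for neurturin, had 42.0 and 63.5 (-0.45), the same direction as Gfra1. Gfra3, for artemin, had 34.4 and 26.7 (0.24), and Gfra4, for persephin, 471 and 314 (0.56). Gfra2 and Gfra3 lay under the filter on both arrays. Of 5 measured Schwann and neural crest markers, 4 were higher in MatDup.dist7, the opposite direction to Gfra1, with a summed intensity of 418 against 314; Sox10 had 124 and 65.0. Their part in the Gfra1 difference was not tested.

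Hgf, a fibroblast-derived factor for epithelial growth and movement, had 215 in MatDup.dist7 cells and 161 in PatDup.dist7 cells (0.38). Its receptor gene Met had 120 and 103 (0.18). Both differences were smaller than the spread between probe sets.

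The 5 feedback inhibitors among the 52 genes were all lower in MatDup.dist7, with a median difference of -0.26. Of all 19938 genes, 9698 were lower in MatDup.dist7. The 5 kept this sign after quantile normalisation, though Dusp6 then stood at -0.02 and Spry4 at -0.10. The other pseudocounts, centring and the floor could not have reversed the sign. Inhibitors of the same families outside the 52 genes differed in both directions, as given with the ERK-responsive genes. Spry1, the Sprouty gene with the largest difference, had 29.6 in MatDup.dist7 cells and 74.8 in PatDup.dist7 cells, only the latter above the signal filter. Its difference of -0.99 lay at the edge of the 2-fold rule. It became -1.31 with a pseudocount of 1, -1.06 after quantile normalisation of the arrays and -0.57 with a pseudocount of 64. Spry2 had 406 and 533 (-0.38), and Spred1, which restrains Ras, had 265 and 321 (-0.26). Dusp6, the ERK phosphatase, had 1049 and 1113 (-0.08), and Spry4 had 133 and 138 (-0.05). Spry1 was the only one of the 5 to differ by more than the spread between probe sets.

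**Figure D2:**
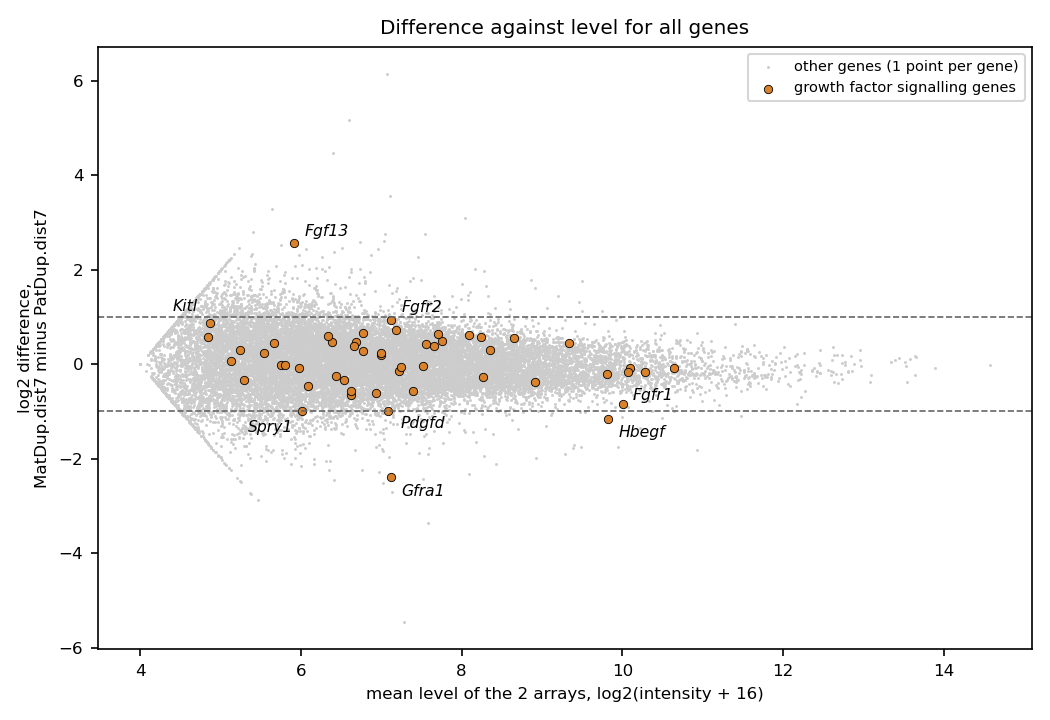
Each point is a gene, plotted by its mean level on the 2 arrays and by the log2 difference, MatDup.dist7 minus PatDup.dist7, both on the log2(intensity + 16) scale; orange points are the 52 growth factor signalling genes and dashed lines mark 2-fold. Fgf13 and Gfra1 lie outside the main cloud, Hbegf (592 and 1336) lies past 2-fold, and the other 49 genes lie between the lines.

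The genes downstream of the receptors were at least 2-fold apart in 4.76% of the adaptor and Ras-ERK list, 7.14% of the PI3K and Akt list and 3.33% of the list of other ERK-responsive genes, beside 7.63% of all genes. The difference of these shares from that of all genes was not tested. Of 21 measured adaptor and Ras-ERK genes, none was 2-fold or more higher in MatDup.dist7 and 1 was in PatDup.dist7, with a median of -0.04. The latter was Rasa1, an activator of the GTPase of Ras and so a brake on it, at 132 and 306 (-1.13). Of 14 genes of the PI3K and Akt arm, 1 was 2-fold or more higher in MatDup.dist7, Pik3r3, a regulatory subunit, at 237 and 99.0 (1.14), and none in PatDup.dist7; the median was -0.06. Of 30 other ERK-responsive genes and regulators, 1 was at least 2-fold apart, the phosphatase gene Dusp4 at 166 and 357 (-1.03), and the median was -0.08. Of these 30, 14 were higher in MatDup.dist7 and the other 16 in PatDup.dist7. Relatives of the 5 feedback inhibitors stood on both sides. Spry3, on chromosome X, had 156 in MatDup.dist7 cells and 114 in PatDup.dist7 cells (0.41), the opposite direction to Spry1, Spry2 and Spry4. Spred3 had 232 and 219.9 (0.07), whereas Spred2 had a difference of -0.14. The phosphatase genes Dusp5 (0.48), Dusp7 (0.30) and Dusp1 (0.04) were higher in MatDup.dist7, unlike Dusp4. Il17rd, an inhibitor of FGF signalling, had 50.1 and 109 (-0.84).

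Heparan sulphate chains hold FGFs at the cell surface and form part of the signalling complex. Of 27 measured genes for these proteoglycans, their modifying enzymes and FGF co-receptors, 2 (7.41%) were 2-fold or more higher in MatDup.dist7 and none in PatDup.dist7. This share stood beside 7.63% of all genes. Of the 27, 16 were lower in MatDup.dist7, and the median was -0.25. Sulf1, an enzyme that removes sulphate groups from the chains outside the cell, had 792 in MatDup.dist7 cells and 340 in PatDup.dist7 cells (1.18). Its relative Sulf2 had 751 and 1145 (-0.60), and the sulphotransferase gene Hs2st1 had 238 and 482 (-0.98), both named after their values were seen. Gpc5, a glypican gene under the filter, had 45.4 and 12.1 (1.13).

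Among 50 other genes of ErbB, GDNF-related and further receptor tyrosine kinase systems, 4 were past 2-fold toward MatDup.dist7 and 6 toward PatDup.dist7, and the median was -0.29. The share past 2-fold in either direction was 20%, beside 7.63% of all genes, and this difference in shares was not tested. Gas1, which encodes a protein related to the GDNF co-receptors that can bind Ret, had 149 in MatDup.dist7 cells and 700.5 in PatDup.dist7 cells (-2.12), the same direction as Gfra1. Gas6 had 730.4 and 1877 (-1.34), and Mertk, a receptor for it, had 83.5 and 219 (-1.24). Pgf, of the vascular endothelial growth factor family, had 7.32 and 45.5 (-1.40) under the filter. Higher in MatDup.dist7 were Nrg3 (1.09) and Angpt2 (1.08), both under the filter, Vegfd on chromosome X at 164 and 70.2 (1.06), and the neurotrophin gene Bdnf at 204 and 93.5 (1.01).

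**Figure D3:**
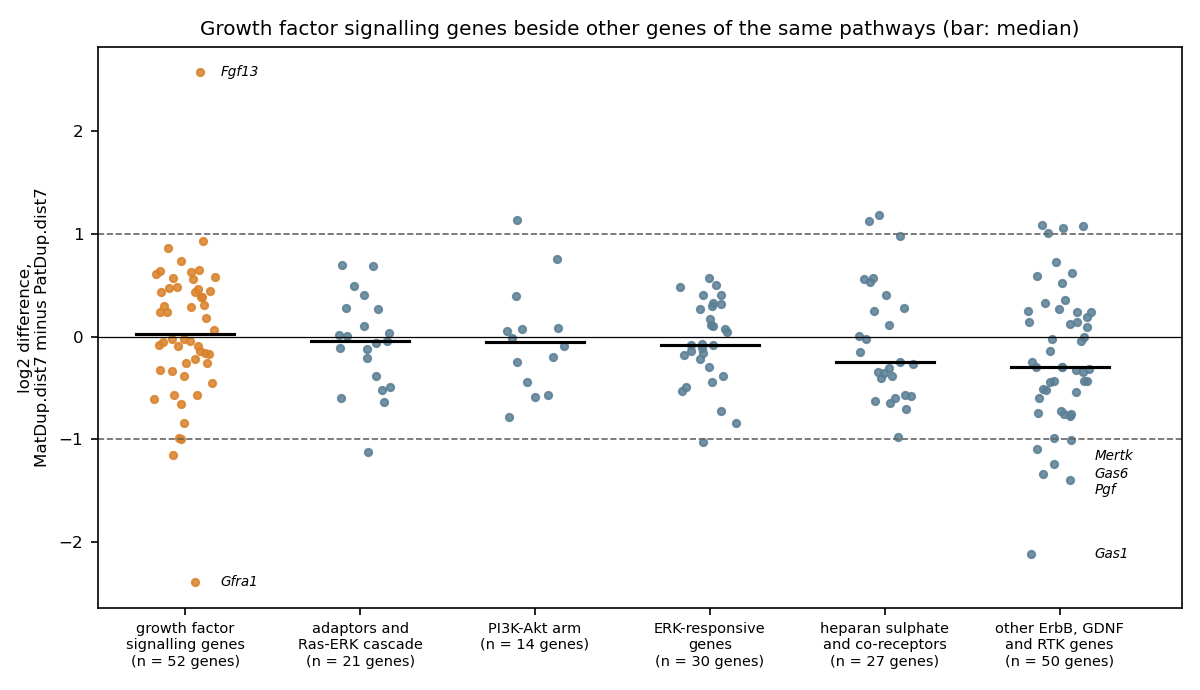
Log2 differences, MatDup.dist7 minus PatDup.dist7, of the 52 growth factor signalling genes (orange) and of 5 lists of other genes of the same pathways (blue), 1 point per gene spread sideways for legibility, with a bar at each median and dashed lines at 2-fold. The medians run from 0.02 for the 52 genes to -0.29 for the other receptor tyrosine kinase genes, and Gas1 at -2.12 is the lowest point outside the 52 genes.

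The size of the largest differences followed the treatment of low signals. No sign changed, but with 1 probe set per gene a change of pseudocount cannot reverse a sign. With a pseudocount of 1, Fgf6, Fgfr2 and Kitl joined Fgf13 past 2-fold, and Pdgfd and Spry1 joined Gfra1 and Hbegf. With a pseudocount of 64, Fgf13, Gfra1 and Hbegf remained the genes past 2-fold.

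**Figure D4:**
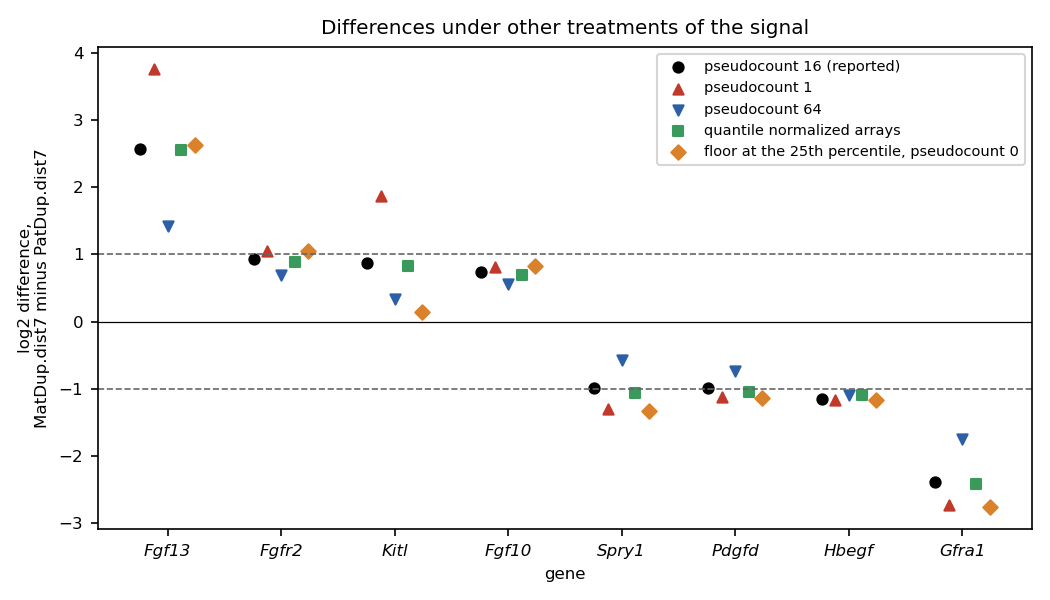
Log2 differences, MatDup.dist7 minus PatDup.dist7, of 8 genes with pseudocounts of 16 (reported), 1 and 64, after quantile normalisation of the arrays and with values floored at the 25th percentile; dashed lines mark 2-fold. Fgf13 ranges from 1.43 to 3.76 and Kitl from 0.15 to 1.87, whereas Hbegf stays near -1.15 and Pdgfd and Spry1 lie on both sides of the lower line.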

How the data were processed

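Each genotype was measured on 1 array. The table deposited by the authors holds 1 linear intensity per probe set and array; Affymetrix Expression Console is named in the submitters' processing notes, while background correction, summarisation and normalisation are not described there. The number of arrays limits the precision. Names came from the platform annotation: 21789 had 1 gene symbol, 1621 several and 12147 none, and only the first were used. Current symbols, chromosomes and gene order came from the reference gene table (GRCm38.p6), which held 21698 of them; the build of the array annotation is not given, so only promoter coordinates are printed.

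With Python 3.11.15 and pandas 2.3.3, log2(intensity + 16) was averaged over the probe sets of a gene, and the difference was MatDup.dist7 minus PatDup.dist7. This scale understates the change of low genes. The 2-fold rule was used with 1 array a group, without a test; the calculation was tested on simulated arrays. The 52 genes, the lists and the naming rule (every one of the 52; in each list up to 4 genes at least 2-fold apart in each direction) were chosen with earlier results of these data known. Values of other genes were chosen after they were seen. The 10 alternatives were pseudocounts of 1 and 64, quantile normalisation, centring on the median of all genes, a floor at the 25th percentile, leaving out probe sets under 1, changing the signal filter, the brightest probe set per gene, a 3-fold rule, and leaving out X and Y genes.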

Additional observations from a re-analysis of the deposited data

How the results depend on the processing

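None of the 52 genes changed sign under the 5 alternatives that could move their values (pseudocounts of 1 and 64, quantile normalisation, centring and the floor). The other 5 could not move them: each of these genes has 1 probe set and none was under 1. The signal filter, the 3-fold rule and leaving out X and Y genes change only which genes are counted. Even among the first 5, a change of pseudocount cannot reverse a sign with 1 probe set per gene, and centring subtracted only 0.02. The floor can reverse a sign only for a gene with a value under the floor. The count of these genes at least 2-fold higher in MatDup.dist7, 1 as reported, was 4 with a pseudocount of 1, 2 with values floored at the 25th percentile and 0 once X and Y genes were left out, since Fgf13 is X-linked. The count higher in PatDup.dist7, 2 as reported, was 4 with a pseudocount of 1, with a floor, after quantile normalisation and after subtracting the median of all genes, each time by Pdgfd and Spry1, and 1 with a 3-fold rule, which Hbegf did not reach. Over all genes above the filter, 657 were at least 2-fold apart; the count was 1103 with a pseudocount of 1, 172 with 64, 1126 with the floor, 1522 without the filter and 150 at 3-fold. The median difference of the 52 genes lay between -0.05 (only genes above the filter) and 0.04. Medians were taken to have moved only past the spread between probe sets, 0.43, a wide limit for a median. Without replicates no array could be left out. No paired analysis was possible because each genotype has 1 array and no test was made. Genes under the signal filter, such as Kitl and Fgf6, have the least certain sizes.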
